A study of Arabidopsis thaliana with 3 samples.

Results

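The spliceosomal small nuclear RNA (snRNA) genes of Arabidopsis thaliana were examined for regions bound by LDL1, a plant homologue of the animal histone demethylase LSD1. Members were all genes of biotype snRNA on chromosomes 1 to 5 in the RefSeq gene table for TAIR10.1, 82 of 37899 nuclear genes, and were assigned to 8 families by symbol. Members with a region were selected on the overlap of at least 1 bp between their listed position and the coordinates of a region in the ChIP set. The group itself was taken up with this overlap known, so the count of members with a region is a description and was not tested.

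Chromatin immunoprecipitation and sequencing had been done on Col-0 seedlings grown at 22°C under long days and harvested at 14 days. In all plants the LDL1 promoter drove a fusion of LDL1 with green fluorescent protein (GFP), and no plants without the fusion were analysed here. The 3 libraries were 2 anti-GFP ChIP libraries, labelled as biological replicates, and 1 input library, with DNA of at least 5 precipitations pooled per library according to the protocol. Whether the line also carried an ldl1 mutation is not given in the sources used here. The ChIP data analysed were 1 set of 5928 regions, without a score, a read count or a separation by replicate, so no value below has a replicate error and the depth of the ChIP libraries is unknown.

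The spliceosome removes introns from messenger RNA precursors. In the major spliceosome, U1 recognises the 5′ splice site and U2 the branch point, and U4, U5 and U6 join as a preformed tri-snRNP before U6 takes part in catalysis. U12, U4atac and U6atac play the parts of U2, U4 and U6 in the minor spliceosome, which removes a rare class of introns. In plants, the U1, U2, U4, U5, U12 and U4atac genes are transcribed by RNA polymerase II (Pol II) and the U6 and U6atac genes by RNA polymerase III (Pol III), although both kinds of promoter use the same type of upstream element and a TATA box.

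LDL1:GFP regions lay on 18 of the 82 snRNA entries (22.0%), against 9.2% of all nuclear genes. The 18 comprised 13 of the 23 U2 entries (56.5%), 2 of 14 U1 entries, 2 of 14 U5 entries and 1 of 11 U4 entries. No region lay on any of the 14 U6 entries, the 3 U6atac entries, the 2 U12 entries or the 1 U4atac entry. By polymerase, 18 of 65 Pol II entries (27.7%) and 0 of 17 Pol III entries held a region. Of the 17 Pol III entries, 16 lay outside the outer 1 Mb and outside gene-poor bins (1 Mb with under 150 protein-coding genes). There 4.93% of all nuclear genes held a region, so 0 of 17 is near the share of all nuclear genes. U2 carried most of the Pol II share. At their listed positions, the Pol II entries other than U2 held a region in 5 of 42 cases (11.9%), near the share of all nuclear genes. That share differed along the chromosomes, as given by family below. Each of the 18 entries had a region of its own, and together these made up 0.304% of the region set.

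**Figure D1:**
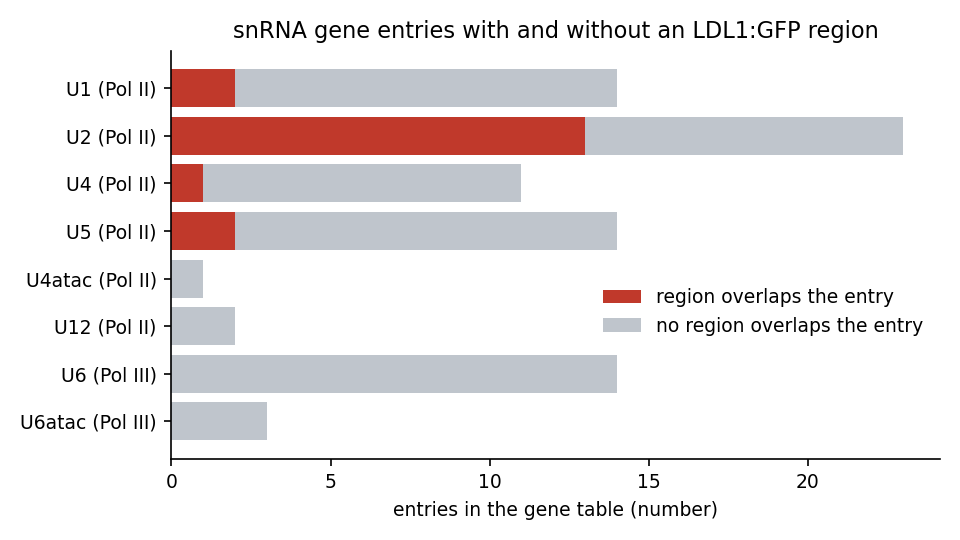
Number of snRNA gene entries per family (horizontal axis) that an LDL1:GFP region overlapped (red) or did not overlap (grey), with the polymerase that transcribes the family. U2 holds 13 of the 18 entries with a region. Both Pol III families hold none, with 17 entries in all, against 9.2% of all nuclear genes.

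Other classes of short genes gave different shares. Among nuclear genes of 50 to 200 bp other than snRNA genes, 8.38% were overlapped. The share was 14.9% for tRNA genes (93 of 625), which are also Pol III genes, and 0.348% for snoRNA genes (1 of 287). It was 2.45% for miRNA genes. The 93 tRNA genes lay on 82 regions that reached 29432 bp in width, against 789 bp at most for regions on snRNA genes. Differences between gene classes were not tested, since the snRNA genes were chosen with their overlap known.

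The listed positions of the snRNA genes bear directly on these counts. The table gave 8 symbols at 2 positions each on the same chromosome. In all 8 cases, 1 entry carried a numbered SNRNA identifier among its synonyms and the second entry, which did not, lay at the higher coordinate. The starts of the 2 U12 entries were 3665 bp apart on chromosome 1. The 4 U2 symbols on chromosome 3 (U2.2, U2.3, U2.4 and U2.6) had starts 11074 to 11377 bp apart. On chromosome 5, U2.7, U6-29 and U6atac had starts 17234 to 17538 bp apart. The distance was thus similar for all symbols of 1 chromosome and different between chromosomes.

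For the 5 U2 symbols listed at 2 positions, the entry with the SNRNA identifier held a region and the second entry did not. The region centres lay 10987.5 bp below the second entry of U2.6, 10989.0 bp below that of U2.4, 11000.5 bp below that of U2.2 and 10874.0 bp below that of U2.3. These distances differed by no more than 126.5 bp among the 4 genes. On chromosome 5 the distance was 17245.5 bp for U2.7. For U12, U6-29 and U6atac neither entry held a region. Without the genome sequence, a second gene copy and a single gene listed in another coordinate version cannot be told apart here, so a count of entries without a region is a count of listed positions.

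**Figure D2:**
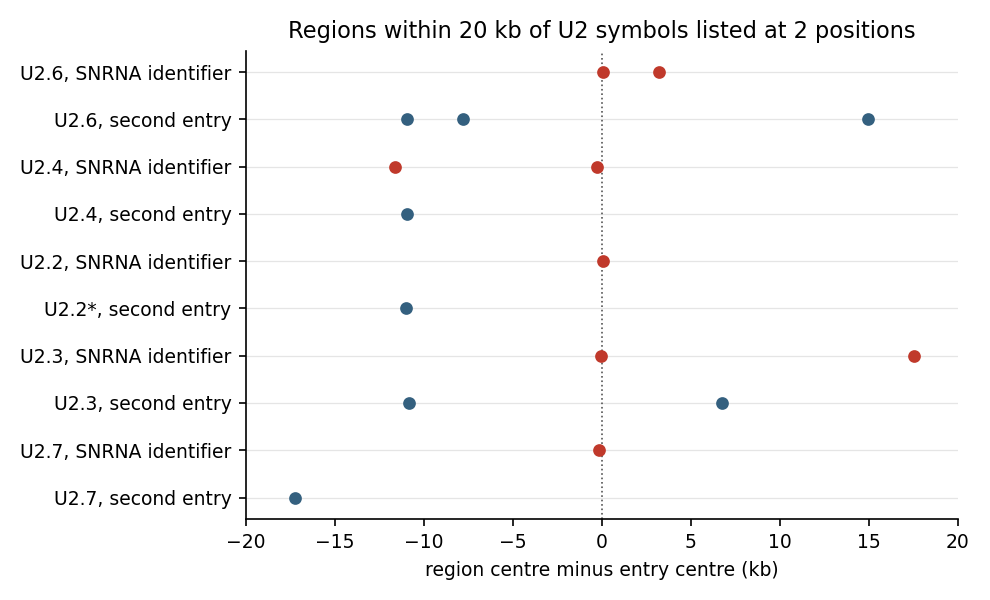
Centres of all regions within 20 kb of both entries of the 5 U2 symbols listed at 2 positions, as distance from the centre of the entry in kb (horizontal axis), for the entry with the SNRNA identifier (red) and the second entry (blue). Each red row has a region at the entry, and in the blue rows a region lies about 11 kb (chromosome 3) or 17 kb (U2.7) lower.

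Counted by symbol instead of by entry, 18 of 74 snRNA genes (24.3%) held a region, among them 13 of 18 U2 genes (72.2%). Of the 5 U2 genes without a region, 2 were listed at far less than the length of the others, U2.17 at 97 bp and U2.18p at 67 bp, against a family median of 195 bp. Without entries under 0.8 of their family's median length, 13 of 16 U2 symbols (81.2%) held a region. The 3 without were U2.13, U2.15 and U2.16. None of the 15 short entries of any family held a region, nor did any of the 11 entries whose symbol ends in p. Among all nuclear genes the share was 9.2%, and in sets this small an absence of regions is near that share. Most entries of both sets also lay beyond the first 6 Mb of a chromosome. There, entries of any length without an SNRNA identifier held a region in 1 of 53 cases (1.89%). An effect of length or of the symbol was therefore not shown.

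Of the 13 entries with an SNRNA identifier, 7 held a region: U2.2, U2.3, U2.4, U2.5, U2.6 and U2.7, which are all 6 such U2 entries, and U4.2. The 6 without a region were U1.5, U12 and the Pol III genes U6-1, U6-26, U6-29 and U6acat. Within these entries a region lay on 7 of 9 Pol II entries and 0 of 4 Pol III entries. Of the 7, 6 were U2 entries. The other Pol II entries were U4.2, with a region, and U1.5 and U12, without. With 4 Pol III entries, a count of 0 is near the 9.2% of all nuclear genes.

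The other 69 entries held 11 regions, and these were not spread evenly along the chromosomes. In the first 6 Mb of the 5 chromosomes, 10 of 16 such entries (62.5%) held a region, against 17.7% of all nuclear genes there. Beyond the first 6 Mb the count was 1 of 53 (1.89%), against 6.22% of all nuclear genes. The 10 were U5.6, U1.10 and the U2 genes U2.1, U2.11 and U2.14 on chromosome 1, U2.10 and U2.10b/12 on chromosome 2, U1.7 on chromosome 3, and U2.9 and U5.7 on chromosome 4. By family, a region lay on 6 of 7 U2, 2 of 3 U1, 2 of 3 U5, 0 of 1 U4 and 0 of 2 U6 entries of this kind in the first 6 Mb. Beyond it the counts were 1 of 10 U2, 0 of 10 U1, 0 of 11 U5 and 0 of 9 U4 entries. The limit of 6 Mb was chosen after the positions had been seen. For tRNA genes the shares were 35.4% in the first 6 Mb and 7.92% beyond. Gene-poor bins (1 Mb with under 150 protein-coding genes) were not left out of these shares or those of all nuclear genes. None of the 16 entries lay in such a bin. Only 2 Pol III entries without an SNRNA identifier lay in the first 6 Mb, U6.4 and the 24 bp entry U6.11p, and 11 of the 17 Pol III entries lay beyond it without such an identifier, where Pol II entries of the same kind held a region in 1 of 42 cases.

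The single entry beyond 6 Mb was U2.8, near the end of chromosome 5, and its overlap was the smallest of all. A region of 255 bp (chromosome 5, 26967043 to 26967297) covered 37 bp of its 195 bp. A wider region of 905 bp (26949424 to 26950328) had its centre 17106 bp below the entry, a distance close to the 17245.5 bp found for U2.7. It was 1 of 6 regions within 20 kb of U2.8, which lies in the outer 1 Mb of the chromosome, where 21.3% of all nuclear genes held a region. The 22 entries without an SNRNA identifier, listed once and within 5 Mb of a symbol listed at 2 positions, were also moved down. The move was the distance between the centres of that symbol's 2 entries, for example 17053 bp for U2.7. The starts of U2.7 are 17371 bp apart, and a move by starts could meet other regions. Of the 22, 2 met a region when moved, against 1 of 22 at the listed position. For all nuclear genes the share at listed positions was 9.2%, so 2 of 22 is near that share. The 2 were U2.8, which also held a region as listed, at the 905 bp region, and U4.4. The region at U4.4 was 409 bp wide on chromosome 1 (18218521 to 18218929). U2.15 and U2.16 met none. U2.13 lies on chromosome 2, where no symbol was listed at 2 positions, and its nearest regions had centres 6662.5 bp above (446 bp wide) and 7067 bp below (259 bp wide).

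U2 base-pairs with the branch point of the intron, and its genes held the largest number of regions. At entries of normal length the regions tended to cover the whole gene. U2.9 was the most central, with a region of 358 bp on chromosome 4 (815197 to 815554) that reached 77 bp below and 88 bp above the gene. U2.11 had margins of 144 and 99 bp in a region of 432 bp (chromosome 1, 3180404 to 3180835). U2.10 had margins of 139 and 114 bp in a region of 448 bp (chromosome 2, 849639 to 850086).

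The neighbouring U2.10b/12 starts 2887 bp beyond the end of U2.10 and had a separate region of 512 bp (852825 to 853336), with margins of 35 and 282 bp. This was the only place where 2 neighbouring members under 5 kb apart both held a region, and they did not share it. The widest region on any member was that of U2.5, at 789 bp (chromosome 5, 2974884 to 2975672). It reached 130 bp below and 464 bp above the gene and also covered 237 bp of MTHSC70-2, which encodes a mitochondrial heat shock protein of the Hsp70 class. U2.14 lay inside a region of 326 bp (chromosome 1, 4842237 to 4842562). At U2.1 a region of 294 bp (5758402 to 5758695) began 20 bp inside the gene and covered 89.7% of it.

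The 5 U2 symbols listed at 2 positions have SNRNA entries of 551 to 883 bp, longer than the other U2 entries, so their regions covered only part of them. At U2.2 the region was 196 bp wide (chromosome 3, 21346718 to 21346913), close to the 195 bp of a U2 gene of normal length, and lay wholly inside the entry of 863 bp. At U2.6 a region of 250 bp (21004458 to 21004707) and at U2.3 a region of 491 bp (21397379 to 21397869) also lay inside the entry. At U2.4 a region of 394 bp (21041712 to 21042105) and at U2.7 a region of 448 bp (chromosome 5, 24713263 to 24713710) covered the lower end of the entry, over 42.9% and 53.8% of its length. The transcribed strand is not given in the table used here, so lower and upper ends were not assigned to promoter and 3′ end.

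**Figure D3:**
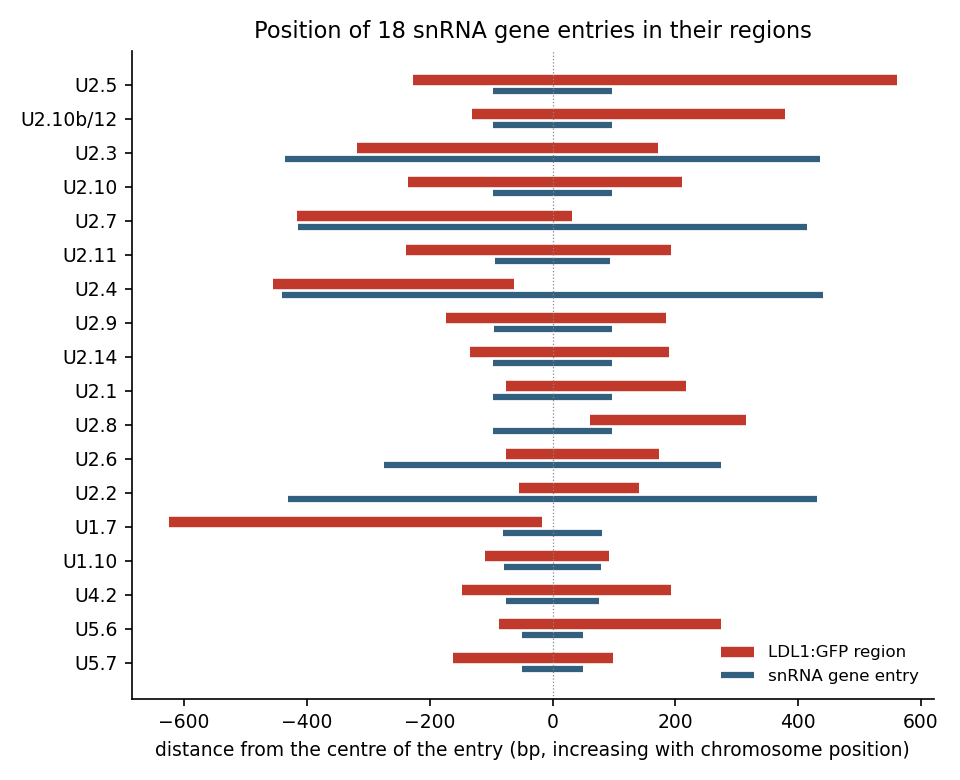
LDL1:GFP regions (red) and snRNA gene entries (blue) for the 18 entries with a region, aligned at the centre of the entry; the horizontal axis gives the distance in bp, increasing with chromosome position. Entries of normal length sit inside their region in 10 cases, U1.7 and U2.8 overlap only at an edge, and the long entries of U2.2, U2.3, U2.4, U2.6 and U2.7 extend beyond theirs.

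U1 initiates splicing at the 5′ splice site. Of its 14 entries, U1.10 lay inside the narrowest region of the families other than U2, at 203 bp (chromosome 1, 4007206 to 4007408), with margins of 31 and 12 bp, so the gene took up 78.8% of the region. U1.7 was overlapped at its lower edge over 64 bp, or 39.5% of its length, by a region of 609 bp (chromosome 3, 1657222 to 1657830) that extended 545 bp below the gene. The region of U1.7 also touched the protein-coding genes AT3G05670 and AT3G05675.

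U1 and U4 genes often lie next to each other. Of 8 pairs of members less than 1 kb apart, 7 joined a U1 and a U4 entry, 188 to 281 bp apart, and 1 joined U2.17 and U5.10. Among these pairs only U4.6 and U1.10 had a region. It lay on U1.10 and ended 186 bp short of U4.6, which was the closest approach of any region to an entry without one. The next closest was U6.11p, 2709 bp from a region. In the other 6 U1 and U4 pairs the nearest region was 3446 to 70540 bp away. For U4.5 with U1.4, U4.8 with U1.9, U1.8 with U4.7, U1.14p with U4.10 and U4.1* with U1a* it was 36187 to 70540 bp away. The remaining pair, U4.3p with U1.13p, had it 3805 and 3446 bp away. Merging members less than 1 kb apart left 74 loci, of which 18 held a region.

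U4 pairs with U6 and keeps it inactive until the spliceosome is activated. Its only entry with a region was U4.2, which has an SNRNA identifier, and a region of 341 bp (chromosome 3, 2178120 to 2178460) enclosed it with margins of 71 and 117 bp. U5 aligns the exons for joining. U5.6 lay near the lower edge of a region of 362 bp (chromosome 1, 1215694 to 1216055), with margins of 37 and 224 bp, and U5.7 lay inside a region of 263 bp (chromosome 4, 1114416 to 1114678), with margins of 113 and 49 bp. The other 12 U5 entries all lay beyond 5 kb of a region.

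The RNAs of U6 and U6atac form part of the catalytic centre. At their listed positions, these entries were 2709 to 109937 bp from the nearest region, with a median of 20241 bp. Both extremes were short entries, U6.11p (24 bp) and U6.8p (78 bp). The median was the second entry of a symbol listed at 2 positions, whose other entry was 36968 bp away. Starts of such symbols were 3665 to 17538 bp apart. Distances of entries without an SNRNA identifier may therefore differ from those of the genes. U6-26 and U6-1, which are both placed by an SNRNA identifier on chromosome 3, were 10422 and 21532 bp away. On chromosome 4, the 4 U6 entries were 12282 bp (U6.4), 31058 bp (U6.3), 4883 bp (U6.5) and 8271 bp (U6.6) from a region. No snRNA entry on chromosome 4 has an SNRNA identifier, so a double listing of the kind above could not occur there. The listed positions of these U6 entries were not checked. U6acat was 2866 bp away. The deposited input intervals covered all 17 Pol III entries over their whole length, and 98.5% of the nuclear sequence. Whether reads align to these positions as well as elsewhere was not tested. Of the Pol II entries, 60 of 65 were covered in full and the lowest cover was 90.5%, at U2.11, an entry with a region.

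**Figure D4:**
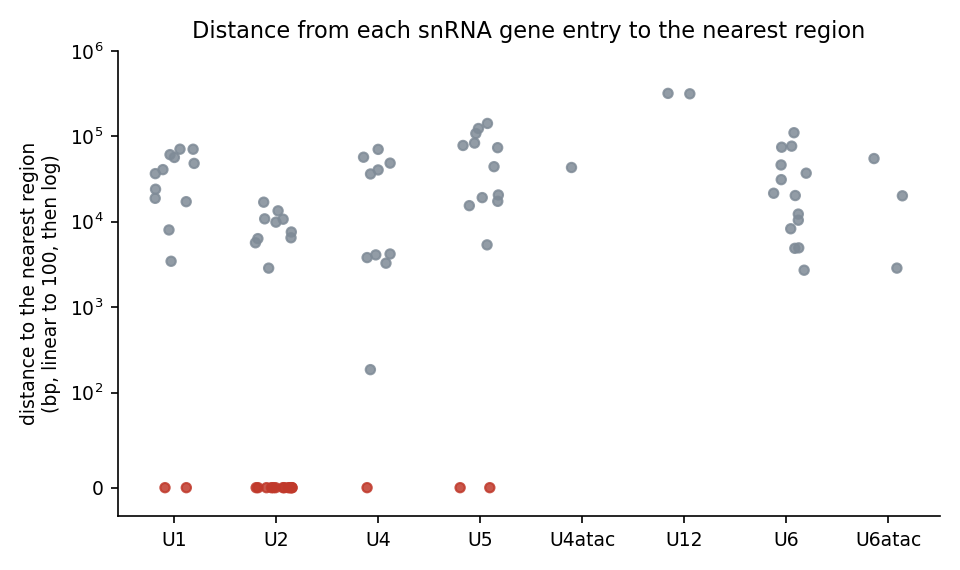
Distance from each of the 82 snRNA gene entries to the nearest LDL1:GFP region (vertical axis, bp, linear to 100 and then logarithmic), by family; red points at 0 are entries with a region and horizontal scatter is only for legibility. Apart from U4.6 at 186 bp, no entry without a region lies closer than 2709 bp, and the U6 entries span 2709 to 109937 bp. All distances are from the listed positions.

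The regions on snRNA genes had a median width of 360 bp (range 196 to 789 bp, n = 18 regions), against 332 bp for the 82 regions on tRNA genes and 300 bp for all regions. Of the 18, 12 were at least as wide as the median of all regions, and 7 (38.9%) fell in the widest 25%. The regions on U2 genes had a median of 394 bp (n = 13) and those on U1, U4 and U5 genes a median of 341 bp (n = 5). None exceeded 1 kb, whereas the widest region on a tRNA gene spanned 29432 bp. Of the 18 snRNA entries, 10 (55.6%) lay wholly inside their region, 3 enclosed it and 5 overlapped it in part. For tRNA genes, which are shorter, 90 of 93 lay inside a region. Among the 10 enclosed snRNA entries the region centre lay within 50 bp of the gene centre in 7, with a median offset of 25.25 bp in either direction.

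**Figure D5:**
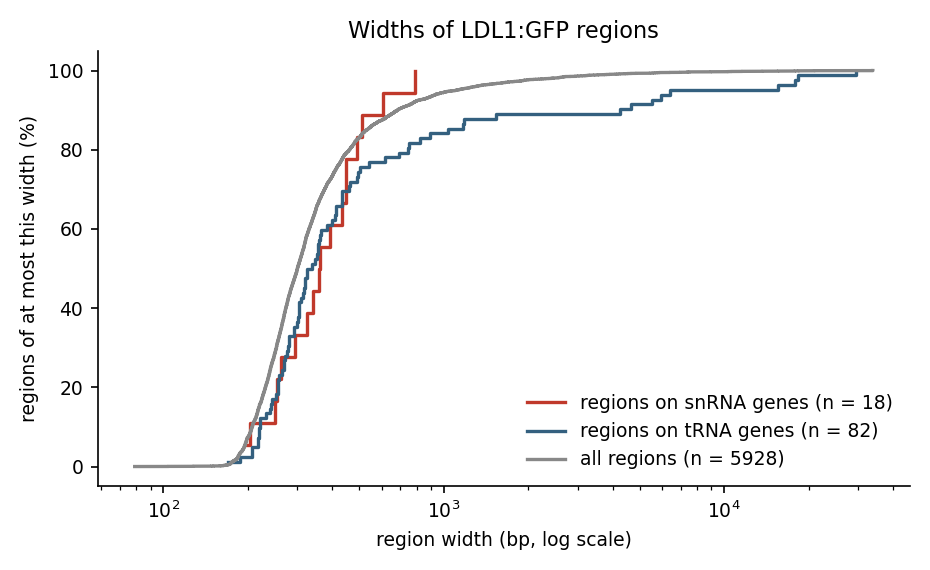
Cumulative share of regions (vertical axis, %) by region width in bp (horizontal axis, log scale) for regions on snRNA genes (red), on tRNA genes (blue) and all regions (grey). The snRNA curve ends at 789 bp, while the tRNA and full sets reach 29432 and 33857 bp.

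Of the 18 regions, 13 also overlapped another annotated gene. A protein-coding gene was touched by 9, a long non-coding RNA gene by 3 and a gene of class misc_RNA by 2, and the U2.10 region touched 2 kinds. The 5 regions on U2.2, U2.6, U2.7, U2.8 and U2.9 overlapped no gene other than the member. At U2.1, U2.3 and U2.11 the protein-coding gene took up 85.7%, 66.8% and 76.6% of the region. A non-coding RNA gene took up 93.9% of the region of U2.10b/12 (AT2G04435), 88.7% of that of U1.10 (AT1G04903), 60.4% of that of U2.14 (AT1G05063) and 57.0% of that of U5.7 (AT4G04195). None of these 7 regions can be assigned to the snRNA gene alone. Members that themselves overlap a protein-coding gene held a region in 7 of 37 cases (18.9%) and the remaining members in 11 of 45 (24.4%).

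The snRNA genes lie almost entirely outside gene-poor bins, and 1 entry, a U6 gene without a region, lay in such a bin. In the outer 1 Mb of the chromosomes 4 of 6 snRNA entries held a region, against 21.3% of all nuclear genes there. All 4 were U2 genes. Farther in along the arms it was 14 of 75 (18.7%), against 4.93% of all nuclear genes. In that inner part, U2 entries held a region in 9 of 19 cases and U6 entries in 0 of 13.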

How the data were processed

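Samples were grouped by their titles. The authors deposited start and end coordinates (unit: base pairs, without a score or count), and the names of these sets tie one to the ChIP group and the other to the input. Per the submitters' processing notes, Bowtie, SICER and TAIR10 were used, with neither role nor version stated. How reads with several matches were treated, which matters for near-identical snRNA copies, is not given in the sources used, nor are the region threshold and the handling of replicates.

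Coordinates were made 1-based. Genes came from the RefSeq table for TAIR10.1, which shares its nuclear chromosomes with TAIR10. Chromosome length was the end of the last input interval. A bin of 1 Mb was called gene-poor if it held under 150 protein-coding genes. The numbered SNRNA identifiers are synonyms in that table. Symbols were compared after removing * and $ and reading U6acat as U6atac. Members and lists were chosen with earlier results of these data known, and any snRNA gene could be named. Other genes are named where they share a region with a member. No test was made. Promoter sequences and strand were not used here, so the planned search for the upstream element was not run and no sequence is given. On simulated regions the overlap procedure found 200 of 200 planted genes and matched a brute-force count for 500 of 500 genes. Python 3.11.15, numpy 2.4.6, pandas 2.3.3 and matplotlib 3.10.9 were used.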

Additional observations from a re-analysis of the deposited data

How the results depend on the processing

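The count of 18 members with a region stayed within 1.5 times under an overlap of at least 50% of the gene (13), regions of at least the median width (12), genes extended by 250 bp (19, the addition being U4.6), arms only (18) and genes fully covered by input (15 of 77). Of the alternatives added after seeing the data, counting each symbol once gave 18 of 74, leaving out short entries 18 of 67, and moving entries 19 of 74. The count changed by more when the whole gene had to lie in 1 region (10) and with regions in the widest 25% (7). Since all 18 are Pol II genes, the Pol II count was 10 and 7 under the same settings. The count of members was 7 of 13 for entries with an SNRNA identifier only, a set with fewer genes. No share of all nuclear genes is given under these alternative settings. The comparison with 9.2% of all nuclear genes therefore holds only for an overlap of at least 1 bp. The Pol III count was 0 in each planned setting, which was fixed in advance. Stricter settings can only keep a count of 0. The extension by 250 bp could reach no Pol III entry, since the closest lay 2709 bp from a region. The loci count was 17 of 71 with a gap of 5 kb, and the median width was 255 bp over the 5 regions with no other gene. Merging regions over gaps of 200 bp left 10 members inside. Leaving out a replicate was not run, since the regions are not separated by replicate. No paired analysis was possible because the ChIP replicates share 1 region set and the input has 1 library. Region depth is unknown, so a gene without a region may lie below the authors' threshold.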
